A study of Mus musculus with 20 samples.

Results

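The nucleosome remodelling and deacetylase complex (NuRD) joins a remodelling ATPase of the CHD family to a histone deacetylase module. Its 10 subunit genes other than the ATPases, Mta1, Mta2, Mta3, Hdac1, Hdac2, Mbd3, Gatad2a, Gatad2b, Rbbp4 and Rbbp7, were followed in mouse germ cells with and without a deletion of Chd4, the gene of its main ATPase. They were selected by gene symbol, from a list chosen with earlier results of these data known. All 10 were present among the 53722 genes of the oocyte table and among the 55291 genes of the spermatogonia table, and all 10 passed the filter on low values in both.

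RNA sequencing covered 20 libraries in 10 groups of 2. The P1 NGO DcKO and P5 NGO DcKO groups were non-growing oocytes (NGO) from ovaries at postnatal days 1 and 5, with the genotype Chd4 f/-; Ddx4-Cre Tg/+. Their controls, P1 NGO Dctrl and P5 NGO Dctrl, were Chd4 f/+; Ddx4-Cre Tg/+, so they carried the same germ-cell Cre and were heterozygous for the floxed allele. The P10 NGO GcKO and P10 GO GcKO groups were non-growing and growing oocytes (GO) at postnatal day 10, Chd4 f/f; Gdf9-iCre Tg/+, and their controls, P10 NGO Gctrl and P10 GO Gctrl, were Chd4 f/f with no Cre named. Undifferentiated spermatogonia came from testes at postnatal day 3, as P3 DcKO (Chd4 f/-; Ddx4-Cre Tg/+) and P3 Dctrl (Chd4 f/+; Ddx4-Cre Tg/+). All mice were of a mixed strain from C57BL/6, 129S1/Sv and FVB/NJ. Ddx4-Cre acts in germ cells of both sexes and Gdf9-iCre in oocytes. The labels name no sort and do not say whether libraries came from separate animals, so a p-value here speaks only of the spread from library to library, which may be technical.

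In NuRD, the MTA proteins form the scaffold on which a histone deacetylase, HDAC1 or HDAC2, is recruited and activated. RBBP4 and RBBP7 are WD40 histone chaperones that bind the MTA proteins and histone tails, MBD3 bridges to the remodelling side and takes the place that the methyl-CpG binding protein MBD2 fills in a separate form of the complex, and GATAD2A or GATAD2B holds the CHD ATPase to the rest. Each role is thus filled by paralogs that replace each other, and HDAC1, HDAC2, RBBP4 and RBBP7 also serve the SIN3, CoREST and Polycomb complexes. In mouse oocytes, HDAC1 and HDAC2 are known to overlap in function, with HDAC2 the major of the pair.

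Values are TPM, a length-scaled share of the transcripts in a library, so a level says nothing of the amount of RNA in a cell. Depth, recovered from the TPM steps and exon lengths, in units of 1e6 reads, was 15.35 to 27.04 in oocyte libraries and 18.93 to 30.09 in spermatogonia libraries, and these counts limit the precision of low values. Chd4 itself was at 4.32 and 1.9 TPM in P1 NGO DcKO, against 24.7 and 31.2 TPM in P1 NGO Dctrl, a log2 difference of -2.87 ± 0.499 (SE, limma adjusted p = 0.0136), a call lost without P1 NGO DcKO replicate 2 (adjusted p = 0.091), without P1 NGO Dctrl replicate 1 (0.101) or replicate 2 (0.122), and with a pseudocount of 0.1 (0.0626). It was at 8.28 and 4.94 TPM in P5 NGO DcKO, against 14.5 and 17.9 TPM in P5 NGO Dctrl, and at 40.2 and 51.7 TPM in P3 DcKO, against 249 and 286 TPM in P3 Dctrl, with limma adjusted p of 0.351 and 0.0671. Chd4 in P3 was called with a filter at 5 TPM (adjusted p = 0.0155) but not with no filter (0.318). Over 10 alternatives, Chd4 in P3 kept a difference of -2.7 to -2.34. In P10 NGO it was at 1.34 and 0.247 TPM in GcKO, against 1.63 and 1.85 TPM in Gctrl, and in P10 GO at 0.631 and 1.54 TPM in GcKO, against 1.56 and 2.96 TPM in Gctrl, with adjusted p of 0.615 and 0.488. The controls of P10 were thus low as well, and Chd4 gives a weak check of the P10 labels. All 8 oocyte markers were at or above 1 TPM in every oocyte group and all 8 spermatogonia markers in both spermatogonia groups.

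The starts of 3 members are shown because these genes changed between non-growing and growing oocytes in the results that follow. The windows are from RefSeq on GRCm38.p6, 250 bases before to 50 after the gene start, and 8 of the 10 members had one. Capitals mark matches, on either strand, to the GC box (GGGCGG), the CCAAT box (CCAAT) and the TATA box (TATAAA). Rbbp7 lies on the plus strand at chrX:162760122-162760421, Hdac2 on the plus strand at chr10:36974294-36974593 and Mbd3 on the minus strand at chr10:80399482-80399781.
Rbbp7: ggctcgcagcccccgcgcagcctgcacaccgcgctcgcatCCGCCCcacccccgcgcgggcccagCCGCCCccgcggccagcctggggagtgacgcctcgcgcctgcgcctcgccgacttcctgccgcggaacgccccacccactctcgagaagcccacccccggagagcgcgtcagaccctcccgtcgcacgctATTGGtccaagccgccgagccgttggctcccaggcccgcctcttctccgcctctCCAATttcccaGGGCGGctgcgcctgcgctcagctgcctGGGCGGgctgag
Hdac2: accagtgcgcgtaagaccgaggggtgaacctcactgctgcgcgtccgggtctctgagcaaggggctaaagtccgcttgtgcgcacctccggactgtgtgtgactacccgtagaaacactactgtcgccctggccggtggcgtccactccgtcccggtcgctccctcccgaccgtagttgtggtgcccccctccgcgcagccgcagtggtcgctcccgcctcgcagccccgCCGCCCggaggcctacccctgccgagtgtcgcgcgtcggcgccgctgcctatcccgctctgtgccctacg
Mbd3: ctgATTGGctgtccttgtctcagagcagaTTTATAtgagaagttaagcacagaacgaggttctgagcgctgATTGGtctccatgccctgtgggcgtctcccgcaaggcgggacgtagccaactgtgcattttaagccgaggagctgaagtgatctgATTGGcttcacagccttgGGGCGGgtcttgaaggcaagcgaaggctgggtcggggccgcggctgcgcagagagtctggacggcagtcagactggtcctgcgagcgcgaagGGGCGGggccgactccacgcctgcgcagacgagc
The Rbbp7 window held 4 GC boxes, 2 CCAAT boxes and 38 CpG dinucleotides. The Hdac2 window held 1 GC box, no CCAAT box and 36 CpG. The Mbd3 window held 2 GC boxes, 3 CCAAT boxes, a TATA box and 22 CpG. Of 32851 RefSeq gene starts, 35.7% held a GC box, 37.4% a CCAAT box and 13.6% a TATA box, and the median was 7 CpG. The oocyte homeobox motif TAATTG, found in 8.0% of all windows, was in none of these 3, which says only that these letters are not in the windows.

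Levels across germ cells are described first in control libraries. Rbbp7 had the highest mean of the 10 members in every group and stood above the next member in both libraries each time. The other members changed places. In P1 NGO Dctrl, Mbd3 and Gatad2a followed it and overlapped each other, whereas in P10 NGO Gctrl and P10 GO Gctrl Hdac2 came next, above Gatad2a. In P3 Dctrl spermatogonia the next was Mta2, which had the lowest mean in P1 NGO Dctrl, P5 NGO Dctrl and P10 NGO Gctrl. The oocyte and spermatogonia tables were normalized separately, so levels set between them are descriptions with no test.

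**Figure D1:**
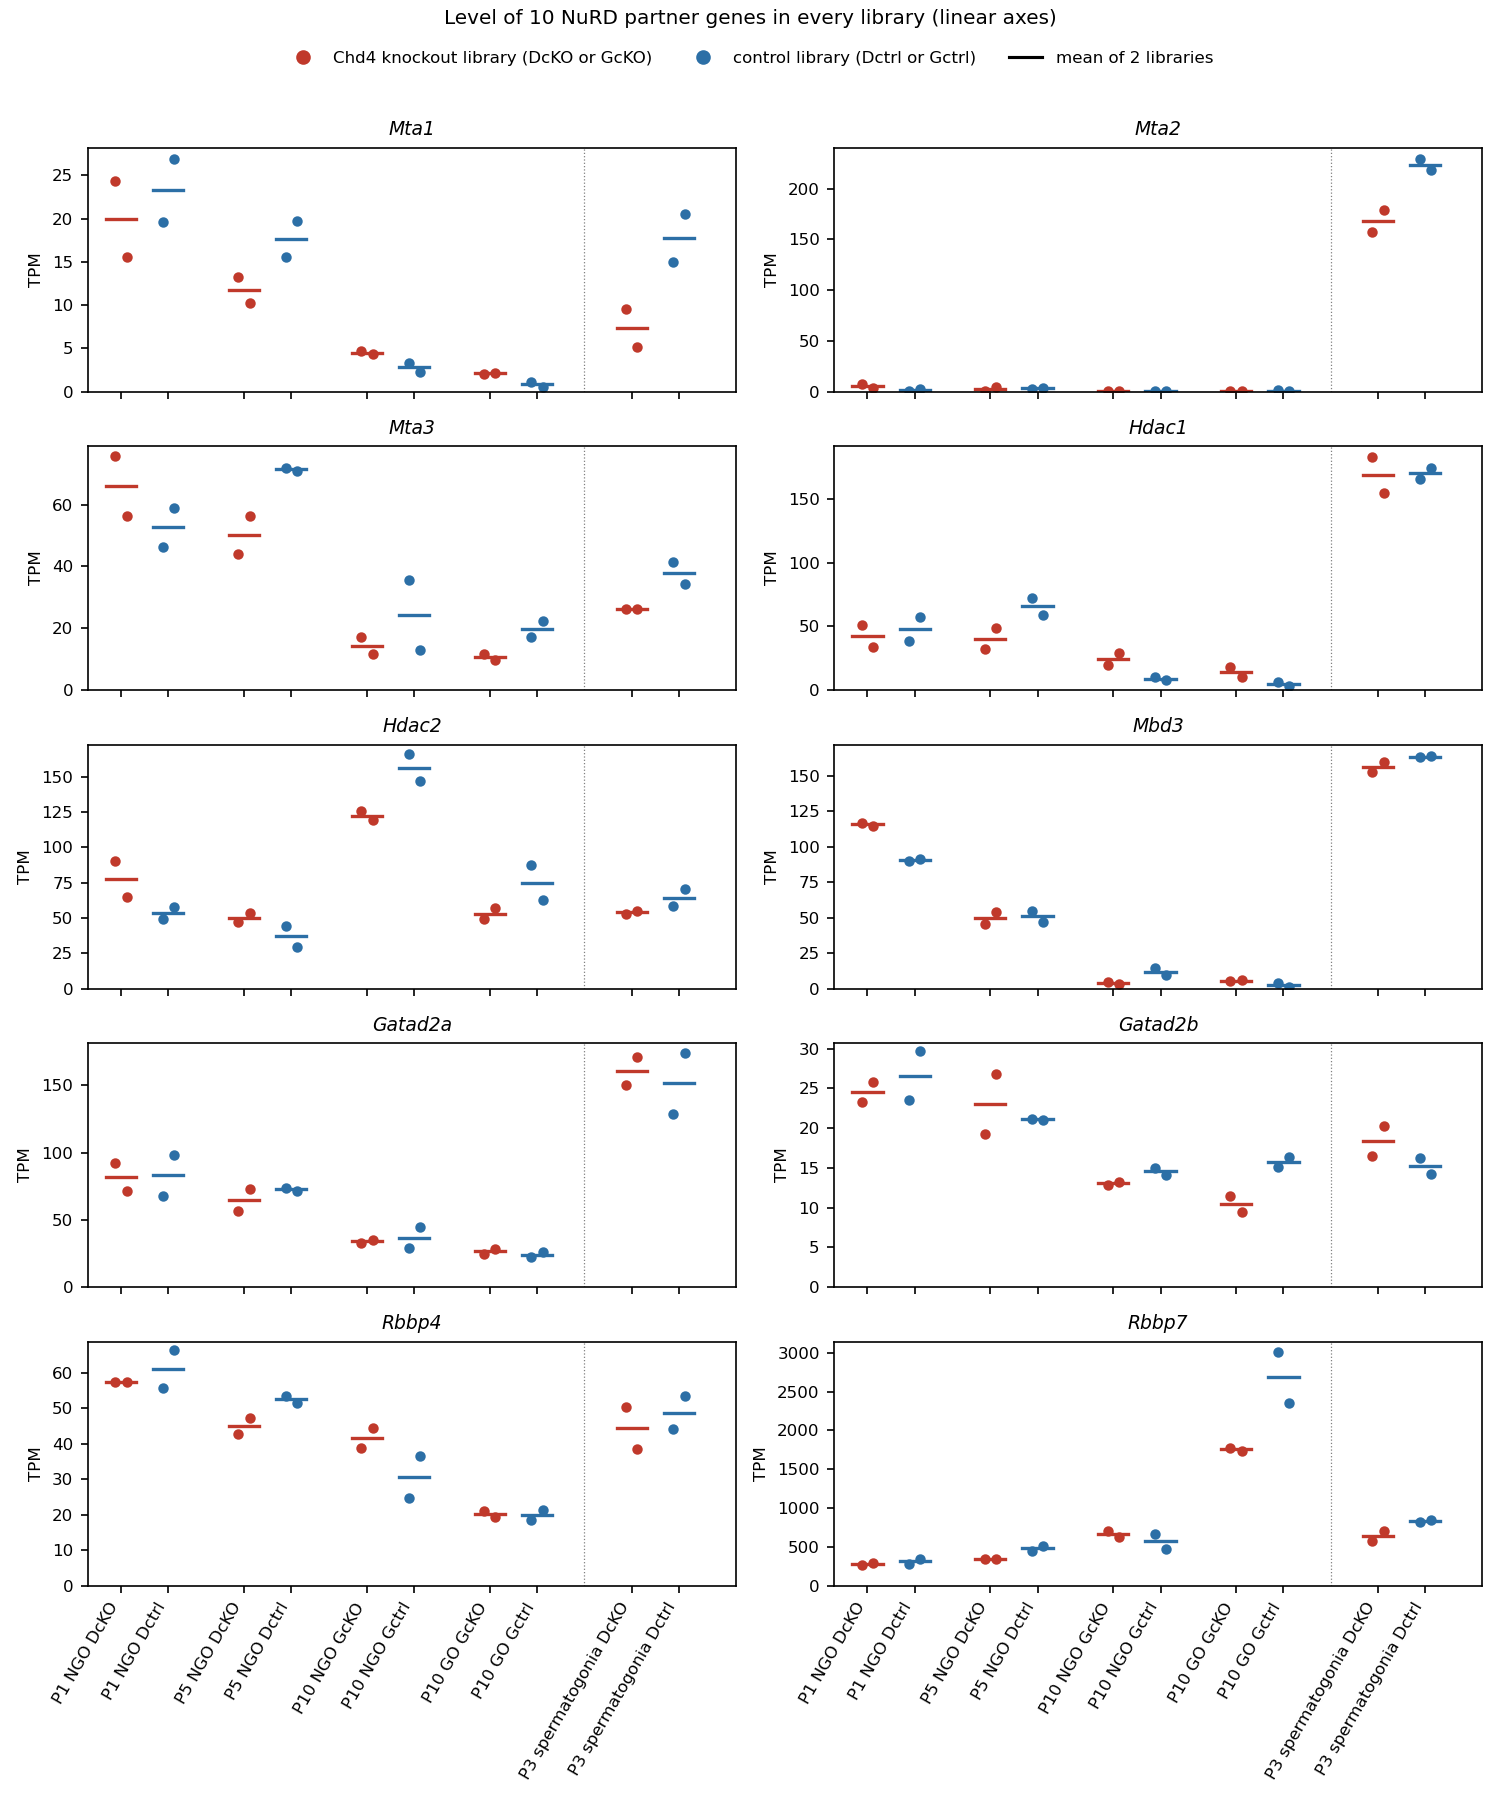
TPM (vertical axes, linear, 1 scale per gene) of the 10 NuRD partner genes in each of the 20 libraries. Red points are Chd4 knockout libraries, blue points controls, and bars the means of 2 libraries; a dotted line separates the oocyte groups from P3 spermatogonia. Rbbp7 is highest in P10 GO, Hdac2 in P10 NGO, and Mta2, Hdac1, Mbd3 and Gatad2a in spermatogonia.

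Of the MTA scaffolds (Mta1, chr12:113098278-113137206; Mta2, chr19:8941875-8952303; Mta3, chr17:83706163-83821516), oocytes held mainly Mta3 and spermatogonia mainly Mta2. Mta3 was at 46.4 and 58.9 TPM in P1 NGO Dctrl, 71.9 and 70.9 in P5 NGO Dctrl, 35.5 and 13.1 in P10 NGO Gctrl, 17.1 and 22.2 in P10 GO Gctrl, and 41.6 and 34.2 in P3 Dctrl. Mta2 was at 0.389 and 2.85 TPM in P1 NGO Dctrl, 2.35 and 3.79 in P5 NGO Dctrl, 1.67 and 0.262 in P10 GO Gctrl, and 229 and 218 in P3 Dctrl. In P10 NGO Gctrl its values of 0.0317 and 0.0349 TPM rested on 1 recovered read per library. Every spermatogonia library was at 157 TPM of Mta2 or more, and every oocyte library at 7.29 TPM or less. Mta1 was at 19.6 and 26.9 TPM in P1 NGO Dctrl, 15.5 and 19.7 in P5 NGO Dctrl, 3.30 and 2.30 in P10 NGO Gctrl, 1.14 and 0.518 in P10 GO Gctrl, and 15 and 20.5 in P3 Dctrl. Across the control oocyte groups the highest mean of Mta1 was 28.0-fold above the lowest, with no overlap between the P1 or P5 libraries and those of P10.

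The deacetylase paralogs moved apart between the younger and the P10 oocytes. Hdac1 (chr4:129516104-129542713) was at 38.6 and 57.5 TPM in P1 NGO Dctrl, 72.2 and 59.4 in P5 NGO Dctrl, 9.93 and 7.51 in P10 NGO Gctrl, 6.65 and 2.80 in P10 GO Gctrl, and 166 and 175 in P3 Dctrl. Hdac2 (chr10:36974544-37001889) was at 49.0 and 57.7 TPM in P1 NGO Dctrl, 44.3 and 29.7 in P5 NGO Dctrl, 166 and 147 in P10 NGO Gctrl, 87.2 and 62.4 in P10 GO Gctrl, and 58.3 and 70.5 in P3 Dctrl. In controls the genes overlapped at P1, Hdac1 was above Hdac2 at P5 and in spermatogonia, and Hdac2 was above Hdac1 at P10. Knockout libraries kept this order at P10 and in spermatogonia. In each P5 NGO DcKO library, however, Hdac2 was above Hdac1, at 47.0 against 32.2 TPM and 53.5 against 48.5 TPM. Hdac1 shares 28.0% of its 75-base words with a processed pseudogene that the annotation names Gm10093 and RefSeq lists as a synonym of Hdac1-ps, the name in the tables, and the handling of reads with several matches is not given in the sources used here, so its values are uncertain to that extent. Hdac1-ps was listed at 1.65 to 4.72 TPM over the P1 and P5 libraries, at no more than 0.661 TPM in P10 NGO and 0.182 TPM in P10 GO libraries, and at 12.4 and 5.97 TPM in P3 DcKO, against 19.1 and 20 TPM in P3 Dctrl.

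Mbd3 (chr10:80392539-80399550) had the steepest range of the non-scaffold subunits in oocytes. It was at 90.3 and 91.7 TPM in P1 NGO Dctrl, 54.8 and 46.9 in P5 NGO Dctrl, 14.5 and 9.35 in P10 NGO Gctrl, 4.17 and 1.15 in P10 GO Gctrl, and 163 and 164 in P3 Dctrl. The control oocyte groups did not overlap, and the mean in P1 NGO Dctrl was 34.2-fold that in P10 GO Gctrl. The alternative methyl-CpG binding gene, Mbd2, was at 20.1 and 23.8 TPM in P10 GO Gctrl and 8.54 and 6.70 TPM in P1 NGO Dctrl. The ATPase linkers varied less. Gatad2a (chr8:69907076-69996384) ranged from 22.4 to 98.1 TPM over oocyte libraries and from 129 to 174 TPM over spermatogonia. Gatad2b (chr3:90293178-90363407) ranged from 9.41 to 29.7 TPM over oocytes and from 14.2 to 20.3 TPM over spermatogonia, and its control oocyte means spanned 1.83-fold, the narrowest span of the 10.

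The histone chaperones went opposite ways in oocytes. Rbbp7 (chrX:162760402-162779092) was at 284 and 345 TPM in P1 NGO Dctrl, 443 and 513 in P5 NGO Dctrl, 669 and 474 in P10 NGO Gctrl, 3010 and 2360 in P10 GO Gctrl, and 817 and 849 in P3 Dctrl. The P10 GO values rested on 66585 and 51234 recovered reads, so counting error is small beside the gap between these libraries. Rbbp4 (chr4:129307100-129335370) was at 55.6 and 66.4 TPM in P1 NGO Dctrl, 53.3 and 51.6 in P5 NGO Dctrl, 24.8 and 36.4 in P10 NGO Gctrl, 18.5 and 21.4 in P10 GO Gctrl, and 44.1 and 53.4 in P3 Dctrl. Rbbp7 shared 6.95% of its 75-base words with other genes and Rbbp4 15.4%. A processed pseudogene with Rbbp7 sequence, Gm6382, was at 27.2 and 23.0 TPM in P10 GO Gctrl, far below Rbbp7.

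Between control oocyte groups, differences were tested with limma on log2(TPM + 1), with a threshold of 0.05 on the p-value adjusted over all 20470 genes; differences are log2 on that scale, with SE, and understate the change of genes with low TPM. Growing oocytes at P10 had more Rbbp7 and less Mbd3 and Hdac2 than non-growing oocytes of the same age. Rbbp7 rose by 2.24 ± 0.176 (adjusted p = 4.22e-06), Mbd3 fell by 1.93 ± 0.408 (adjusted p = 0.00418) and Hdac2 fell by 1.07 ± 0.272 (adjusted p = 0.0122). These are the 3 genes whose starts are printed above. That is 1 member higher and 2 lower, where 11.0% of all genes tested were higher, 13.2% lower and 24.3% changed in either direction. The Rbbp7 call held in all 11 alternatives tried, and that of Mbd3 in all but a fit of these groups alone (adjusted p = 0.0903). The Hdac2 call was lost without P10 NGO Gctrl replicate 1 (-0.99, adjusted p = 0.0611) and without P10 GO Gctrl replicate 2 (-0.83, adjusted p = 0.109), over a range of adjusted p from 0.00739 to 0.109. Mta1 gave -1.06 ± 0.395 with an adjusted p of 0.0733 and was not called, but with a pseudocount of 0.1 it was, at -1.7 (adjusted p = 0.0288). The 95% intervals of Gatad2b, -0.54 to 0.75, and of Mta3, -1.05 to 0.75, covered 0. In bulk RNA such as this, fewer cells of a type and less RNA per cell cannot be told apart.

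Between P10 NGO Gctrl and P5 NGO Dctrl, the non-growing oocytes of the later age had less of most subunits and more Hdac2. Here age and genotype cannot be told apart, because the P5 controls carry Ddx4-Cre and are heterozygous while the P10 controls are Chd4 f/f without Cre. Hdac2 rose by 2.08 ± 0.272 (adjusted p = 0.000252), and 7 members fell, of which Hdac1 gave -2.79 ± 0.438 (adjusted p = 0.000863), Mta1 -2.29 ± 0.395 (adjusted p = 0.00156) and Mbd3 -2.03 ± 0.408 (adjusted p = 0.00401). The other 4 were Mta3 at -1.67 ± 0.413 (adjusted p = 0.0126), Gatad2a at -1.0 ± 0.291 (adjusted p = 0.0278), Mta2 (adjusted p = 0.0448, with 1 read in each P10 library) and Rbbp4 at -0.78 ± 0.261 (adjusted p = 0.04999). Gatad2b, at -0.51 ± 0.298, and Rbbp7, at 0.24 ± 0.176, were not called (adjusted p = 0.257 and 0.374), although voom on recovered reads called Gatad2b (adjusted p = 0.0284). Of all genes tested, 22.7% changed, 5.54% higher and 17.1% lower, and the median of all genes was -0.47 against -1.34 over the members. Relative to that shift, Rbbp4 stood at -0.31, Gatad2a at -0.53, Hdac1 at -2.32 and Hdac2 at 2.55, so the Rbbp4 and Gatad2a values are closer to 0 after it. After quantile normalization 51.4% of the changed genes were higher, against 24.5% before. The P10 NGO Gctrl libraries had 10940 and 10213 genes at 1 TPM or more, against 15453 and 14305 in P5 NGO Dctrl. The part of this gap in the falls was not tested. The calls of Hdac1, Hdac2, Mbd3 and Mta1 held in all 11 alternatives.

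The other 4 of these falls were lost when some single libraries were left out, and in other alternatives. Rbbp4 was lost with a pseudocount of 0.1 and Mta2 with no filter. Quantile normalization lost Gatad2a, Mta2 and Rbbp4, and a replicate block Mta2 and Rbbp4. A fit of these groups alone lost Mta3, Gatad2a and Rbbp4. Without P5 NGO Dctrl replicate 1 or replicate 2, the adjusted p was 0.0691 and 0.0559 for Mta3, 0.121 and 0.0905 for Gatad2a, 0.1 and 0.178 for Mta2, and 0.177 and 0.132 for Rbbp4. Without P10 NGO Gctrl replicate 1 it was 0.165 for Gatad2a, 0.127 for Mta2 and 0.250 for Rbbp4, and without P10 NGO Gctrl replicate 2 it was 0.0986 for Mta3, at a difference of -0.99, and 0.135 for Mta2. Between P5 NGO Dctrl and P1 NGO Dctrl no member passed in limma, where 4.70% of all genes passed. At an unadjusted p under 0.05 there were 1 of 10 members and 16.3% of all genes. That member was Rbbp7, at 443 and 513 TPM in P5 NGO Dctrl, against 284 and 345 TPM in P1 NGO Dctrl, with a difference of 0.61 ± 0.176 and an adjusted p of 0.0816. It was called with quantile normalization (adjusted p = 0.0479) and in a fit of these groups alone (0.0432), where Mbd3 was called too. In P5 NGO Dctrl 9 markers of granulosa and Sertoli cells summed to 5.95 and 7.91 TPM, against 71.9 and 125 TPM in P1. Their part in these values was not tested.

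**Figure D2:**
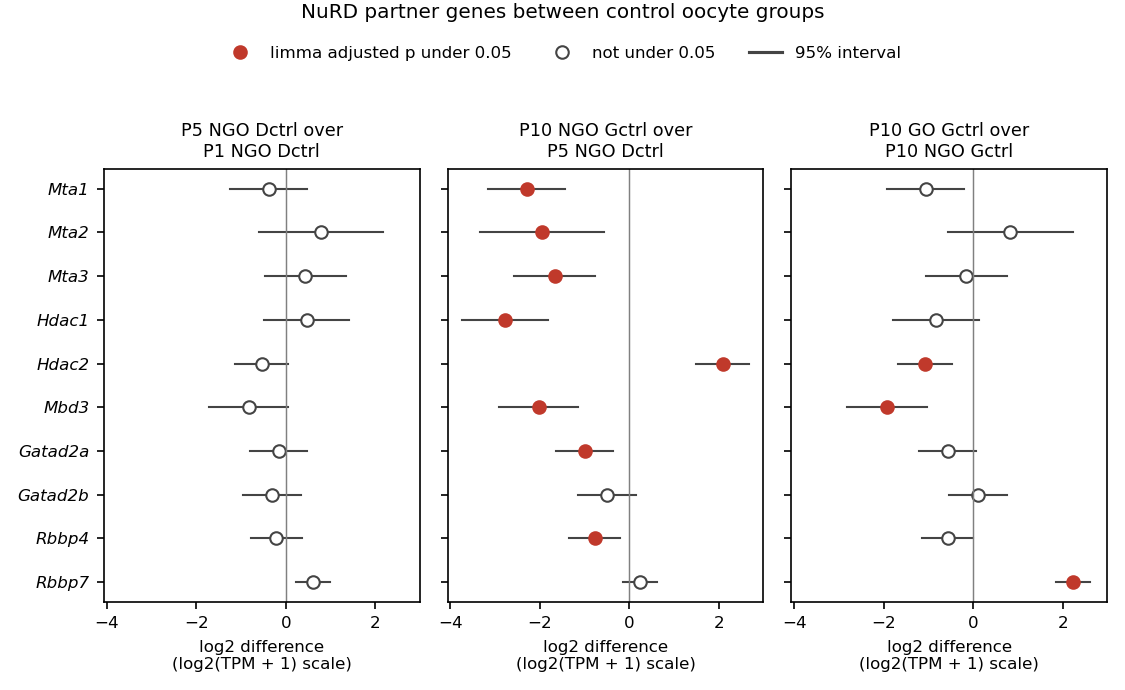
Log2 differences of the 10 members between control oocyte groups (horizontal axis, log2(TPM + 1) scale), with 95% intervals; filled red points have a limma adjusted p under 0.05. Rbbp7 is the only member higher in P10 GO Gctrl than in P10 NGO Gctrl past the threshold, at 2.24, and Hdac2 the only member higher in P10 NGO Gctrl than in P5 NGO Dctrl, at 2.08.

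Because paralogs replace each other, the share of a paralog in its family's summed TPM describes the make-up that transcripts allow. These shares are descriptions with no test. Hdac1 made up 44.1% and 49.9% of Hdac1 and Hdac2 transcripts in P1 NGO Dctrl, 61.9% and 66.7% in P5 NGO Dctrl, 5.66% and 4.85% in P10 NGO Gctrl, 7.08% and 4.29% in P10 GO Gctrl, and 74.0% and 71.3% in P3 Dctrl. Rbbp7 made up between 82.3% and 99.4% of Rbbp4 and Rbbp7 transcripts in all 20 libraries, and both P10 GO Gctrl libraries were above 99%, at 99.4% and 99.1%. Mta2 made up 80.2% and 79.9% of the MTA transcripts in P3 Dctrl and at most 8.38% in any oocyte library, where Mta3 held 66.4% to 96.6%. Mbd3 made up 91.4% and 93.2% of Mbd2 and Mbd3 transcripts in P1 NGO Dctrl, 43.0% and 54.4% in P10 NGO Gctrl, and 17.2% and 4.59% in P10 GO Gctrl. Gatad2a was the larger linker in every library, with 59.8% to 79.8% in oocytes and 88.9% to 92.5% in spermatogonia.

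**Figure D3:**
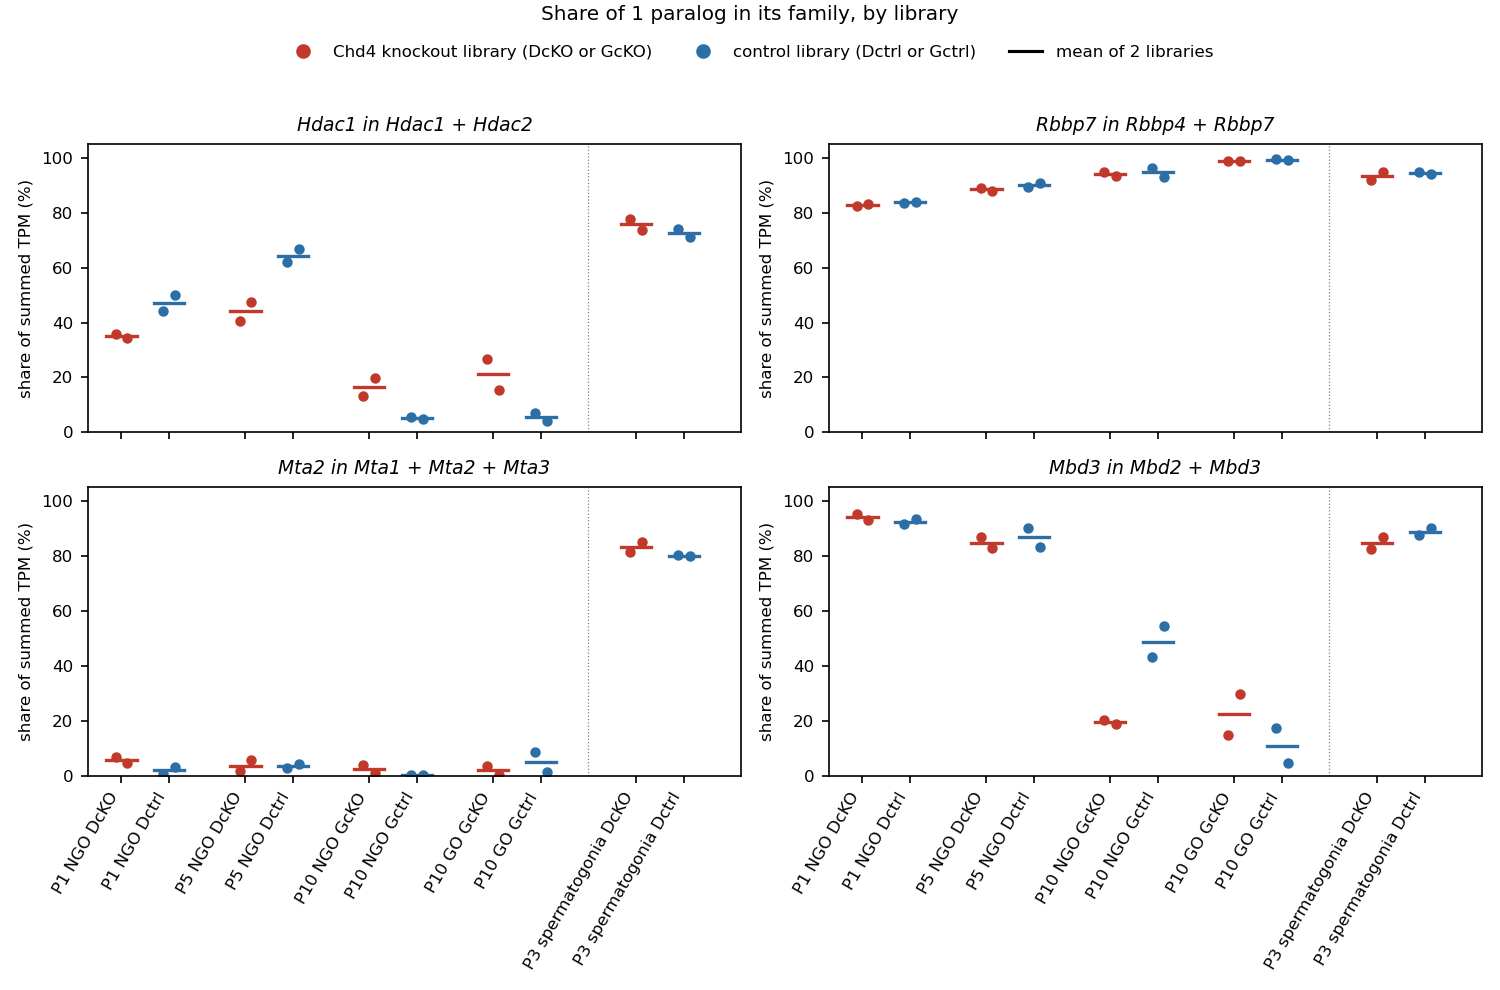
Share (%, vertical axes from 0) of Hdac1, Rbbp7, Mta2 and Mbd3 in the summed TPM of their family in each library, with Chd4 knockouts in red, controls in blue and bars at the mean of 2 libraries. The Hdac1 share is below that of controls in both P1 and both P5 knockout libraries and above it in all 4 P10 knockout libraries; Mta2 is above 79% in spermatogonia only.

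The knockout comparisons ask whether loss of Chd4 alters the transcripts of its partners. Where groups are said not to overlap, this only describes the libraries. With 2 libraries a group it can arise without a difference, and its share over all genes is not given here. In growing oocytes at P10, Hdac1 was higher and Rbbp7 lower in the knockout. Hdac1 was at 18.0 and 10.4 TPM in P10 GO GcKO (467 and 233 reads), against 6.65 and 2.80 TPM in P10 GO Gctrl (174 and 72 reads). The groups did not overlap, and Hdac1 rose by 1.45 ± 0.438 (limma adjusted p = 0.0469). Rbbp7 was at 1780 and 1740 TPM in P10 GO GcKO (39020 and 32881 reads), against 3010 and 2360 TPM in P10 GO Gctrl. Both knockout libraries were below both controls, and Rbbp7 fell by 0.59 ± 0.176 (adjusted p = 0.0429). These 2 of 10 members stand beside 13.8% of all genes tested that changed, 9.12% higher and 4.69% lower, and the median was -0.23 over the members and 0.06 over all genes. Of all changed genes 66.0% were higher, and 52.6% after quantile normalization.

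Both calls lay close to the threshold. The Hdac1 call was lost without P10 GO GcKO replicate 1 (1.08, adjusted p = 0.232) and without P10 GO Gctrl replicate 2 (0.95, adjusted p = 0.321). The Rbbp7 call was lost without P10 GO Gctrl replicate 1 (-0.42, adjusted p = 0.297), without P10 GO GcKO replicate 1 (-0.61, adjusted p = 0.111) and without P10 GO GcKO replicate 2 (-0.58, adjusted p = 0.135). Both were also lost with no filter on low values (adjusted p = 0.0681 for Hdac1 and 0.0814 for Rbbp7), with quantile normalization (0.105 and 0.249) and in a fit of these groups alone (0.2 and 0.0706), and Hdac1 with voom on recovered reads (0.121). Over all 11 alternatives the difference kept its sign for both, from 0.95 to 1.96 for Hdac1 and from -0.77 to -0.32 for Rbbp7. Other measures moved with these groups. The 8 oocyte markers summed to 98800 and 110000 TPM in P10 GO GcKO, against 48400 and 50000 TPM in P10 GO Gctrl, and Dppa3 alone averaged 99900 TPM in P10 GO GcKO and 46000 TPM in P10 GO Gctrl. The 5 endothelial markers summed to 102 and 2.78 TPM in P10 GO GcKO, against 6.64 and 2.96 TPM in P10 GO Gctrl. Cdh5 and Emcn were at 0 in all 4, and the sum of 102 TPM was mainly Pecam1, which averaged 50.4 TPM in P10 GO GcKO. The 9 granulosa and Sertoli markers summed to 3.20 and 25.1 TPM in P10 GO GcKO, against 1.32 and 0.358 TPM in P10 GO Gctrl. The 8 stromal markers summed to 3.10 and 6.48 TPM in P10 GO GcKO, against 0.253 and 0.0326 TPM in P10 GO Gctrl. Of these 4 lists, the endothelial sums overlapped between the groups and the others did not. Their part in the result was not tested.

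The other 8 members were not called in growing oocytes. Mbd3 was at 4.96 and 6.13 TPM in P10 GO GcKO, against 4.17 and 1.15 TPM in P10 GO Gctrl, a difference of 0.97 ± 0.408 (limma adjusted p = 0.156). Without P10 GO Gctrl replicate 1 it reached 1.6 with an adjusted p of 0.0293, without P10 GO Gctrl replicate 2 it was 0.33 (adjusted p = 0.775), and with quantile normalization 0.43 (adjusted p = 0.524). Mta1 was at 2.06 and 2.19 TPM in P10 GO GcKO, against 1.14 and 0.518 TPM in P10 GO Gctrl. Mta3 was at 11.6 and 9.60 TPM in P10 GO GcKO, against 17.1 and 22.2 TPM in P10 GO Gctrl. For Mta1 and Mta3 the groups did not overlap, with adjusted p of 0.237 and 0.238. Gatad2b was at 11.4 and 9.41 TPM in P10 GO GcKO, against 15.1 and 16.4 TPM in P10 GO Gctrl, and Hdac2 at 49.0 and 57.0 TPM, against 87.2 and 62.4 TPM, with adjusted p of 0.275 and 0.314. The 95% interval of Rbbp4 ran from -0.56 to 0.59 and that of Gatad2a from -0.50 to 0.77. Mta2 was at 0.488 and 0.0377 TPM in P10 GO GcKO, against 1.67 and 0.262 TPM in P10 GO Gctrl, and these groups overlapped (adjusted p = 0.696).

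In non-growing oocytes at P10, no member passed in limma, where 1.92% of all genes passed. At an unadjusted p under 0.05 there were 2 of 10 members and 15.6% of all genes, shares that lie close together. Those 2 were Hdac1 and Mbd3. Hdac1 was at 19.6 and 29.3 TPM in P10 NGO GcKO, against 9.93 and 7.51 TPM in P10 NGO Gctrl, a difference of 1.37 ± 0.438 (limma adjusted p = 0.147). Mbd3 was at 4.38 and 2.87 TPM in P10 NGO GcKO, against 14.5 and 9.35 TPM in P10 NGO Gctrl, a difference of -1.47 ± 0.408 (limma adjusted p = 0.0989). For both genes the groups did not overlap, and in all 11 alternatives the adjusted p stayed above the threshold, from 0.0994 to 0.515 for Hdac1 and from 0.0645 to 0.594 for Mbd3. Hdac2 was at 126 and 119 TPM in P10 NGO GcKO, against 166 and 147 TPM in P10 NGO Gctrl, so the Hdac1 share of the pair was 13.4% and 19.7% in GcKO, against 5.66% and 4.85% in Gctrl. Rbbp7 was at 704 and 620 TPM in P10 NGO GcKO, against 669 and 474 TPM in P10 NGO Gctrl, and the groups overlapped. Mta2 was recovered at 33 and 4 reads in P10 NGO GcKO, against 1 and 1 in P10 NGO Gctrl. The 9 granulosa and Sertoli markers summed to 12.5 and 2.39 TPM in P10 NGO GcKO, against 0.0596 and 0.173 TPM in P10 NGO Gctrl, and their part in these values was not tested.

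Non-growing oocytes of the first postnatal days showed no called member. In P1 NGO DcKO against P1 NGO Dctrl, 0 of 10 members passed in limma and none had an unadjusted p under 0.05, where 1.70% of all genes passed and 10.2% had an unadjusted p under 0.05. Mbd3 was at 117 and 115 TPM in P1 NGO DcKO, against 90.3 and 91.7 TPM in P1 NGO Dctrl, and Hdac2 at 90.5 and 65.1 TPM, against 49.0 and 57.7 TPM. Neither pair of groups overlapped, and their adjusted p were 0.964 and 0.586. These rest on a spread shared by all 16 oocyte libraries, not on that of the P1 groups. In a fit of the P1 groups alone the limma adjusted p was 0.24 for Mbd3 and 0.289 for Hdac2. Rbbp7 was at 267 and 286 TPM in P1 NGO DcKO, against 284 and 345 TPM in P1 NGO Dctrl, with a 95% interval of -0.56 to 0.21. Over the 10 members the intervals reached from -1.14, for Hdac1, to 2.77, for Mta2. Mta2 was at 7.29 and 3.39 TPM in P1 NGO DcKO, against 0.389 and 2.85 TPM in P1 NGO Dctrl. In P1 NGO DcKO the 9 granulosa and Sertoli markers summed to 6.98 and 67.2 TPM, against 71.9 and 125 TPM in Dctrl. Krt18 alone averaged 26.4 TPM in DcKO and 82.7 TPM in Dctrl. The 5 endothelial markers summed to 25.7 and 15.7 TPM in DcKO, against 8.65 and 10.7 TPM in Dctrl. These sums were mainly Pecam1, which averaged 18.3 TPM in DcKO and 7.0 TPM in Dctrl, and Tek was at 0 in both DcKO libraries. Neither list overlapped between the groups, and their part in these values was not tested.

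In P5 NGO DcKO against P5 NGO Dctrl, no member passed in limma, where 1.36% of all genes passed. At an unadjusted p under 0.05 there were 1 of 10 members, Rbbp7, and 11.8% of all genes, shares that lie close together. Rbbp7 was at 346 and 343 TPM in P5 NGO DcKO, against 443 and 513 TPM in P5 NGO Dctrl, a difference of -0.47 ± 0.176 (limma adjusted p = 0.290). Hdac1 was at 32.2 and 48.5 TPM in P5 NGO DcKO, against 72.2 and 59.4 TPM in P5 NGO Dctrl, and Hdac2 at 47.0 and 53.5 TPM, against 44.3 and 29.7 TPM. Their groups did not overlap, their adjusted p were 0.607 and 0.592, and the Hdac1 share of the pair was 40.6% and 47.6% in P5 NGO DcKO, against 61.9% and 66.7% in P5 NGO Dctrl. Mta3 was at 43.9 and 56.4 TPM in P5 NGO DcKO, against 71.9 and 70.9 TPM in P5 NGO Dctrl (adjusted p = 0.733). Mbd3, Gatad2a and Gatad2b overlapped between the groups. In P5 NGO DcKO the 9 granulosa and Sertoli markers summed to 32.8 and 52.6 TPM, against 5.95 and 7.91 TPM in Dctrl. The highest mean among them was Inha in P5 NGO DcKO, at 28.4 TPM, and Krt18 in P5 NGO Dctrl, at 3.55 TPM. Their part in these values was not tested.

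In spermatogonia, 0 of 10 members and 0% of the 18671 genes tested passed in limma, with 3 members and 3004 genes, 16.1%, at an unadjusted p under 0.05. The 3 members were Mta1, Mta2 and Rbbp7. Mta1 was at 9.56 and 5.12 TPM in P3 DcKO, against 15 and 20.5 TPM in P3 Dctrl, a difference of -1.20 ± 0.457 (limma adjusted p = 0.285). Mta2, the main MTA scaffold transcript there, was at 157 and 179 TPM in P3 DcKO, against 229 and 218 TPM in P3 Dctrl, a difference of -0.41 ± 0.148 (adjusted p = 0.273). Rbbp7 was at 578 and 701 TPM in P3 DcKO, against 817 and 849 TPM in P3 Dctrl, a difference of -0.39 ± 0.139 (adjusted p = 0.273). For all 3 genes both knockout libraries were below both controls. The same held for Hdac2, Mbd3 and Mta3, the last at 26.3 and 26.2 TPM in P3 DcKO, against 41.6 and 34.2 TPM in P3 Dctrl. Gatad2b went the other way, at 16.5 and 20.3 TPM in P3 DcKO, against 16.2 and 14.2 TPM in P3 Dctrl.

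Hdac1 and Mbd3 in spermatogonia gave narrow intervals around 0. Hdac1 was at 183 and 155 TPM in P3 DcKO, against 166 and 175 TPM in P3 Dctrl, with a 95% interval of -0.41 to 0.37. Mbd3 was at 153 and 160 TPM in P3 DcKO, against 163 and 164 TPM in P3 Dctrl, with an interval of -0.42 to 0.29. Gatad2a was at 150 and 171 TPM in P3 DcKO, against 129 and 174 TPM in P3 Dctrl. The Mta2 share of MTA transcripts was 81.4% and 85.1% in P3 DcKO, against 80.2% and 79.9% in P3 Dctrl. Summed markers of other cells moved with these groups. The 9 granulosa and Sertoli markers summed to 363 and 487 TPM in P3 DcKO, against 161 and 116 TPM in P3 Dctrl. Foxl2 was at 0 in all 4. Krt18 alone averaged 314 TPM in P3 DcKO and 53.8 TPM in P3 Dctrl, so most of this gap was Krt18. The 8 stromal markers summed to 43.6 and 45.3 TPM in P3 DcKO, against 13.5 and 13.4 TPM in P3 Dctrl. The 7 blood markers summed to 76.3 and 103 TPM in P3 DcKO, against 28.8 and 40.7 TPM in P3 Dctrl. Most of the blood marker gap was Cd68, which averaged 80.2 TPM in P3 DcKO and 31.9 TPM in P3 Dctrl. Ptprc was at 0 in both P3 DcKO libraries. The 5 endothelial markers summed to 43.9 and 50 TPM in P3 DcKO, against 26.1 and 22.8 TPM in P3 Dctrl. Their part in the spermatogonia values was not tested.

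**Figure D4:**
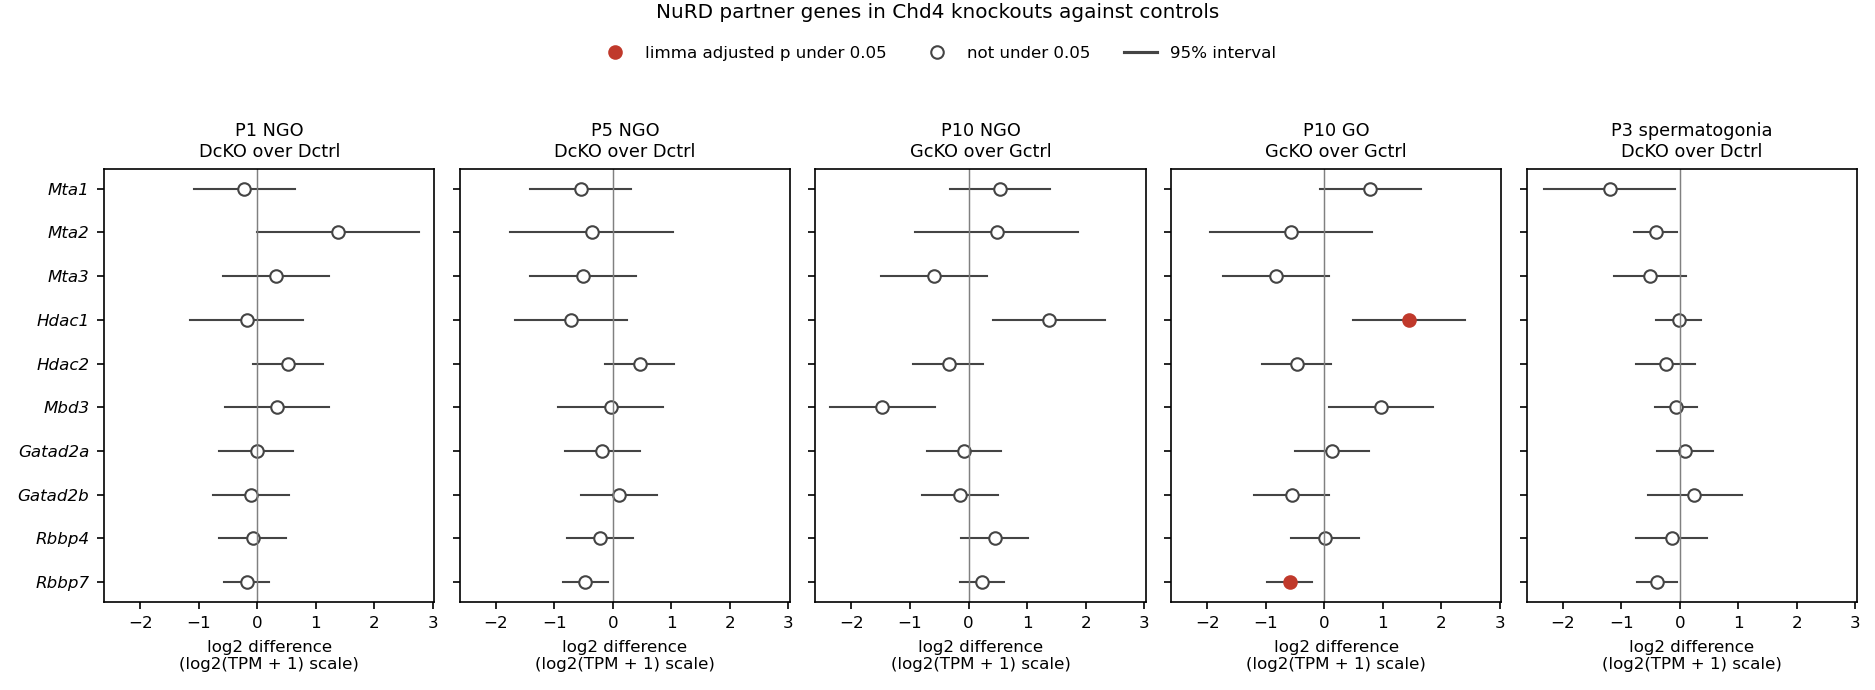
Log2 differences of the 10 members between Chd4 knockout and control (horizontal axis, log2(TPM + 1) scale) in 5 comparisons, with 95% intervals; filled red points have a limma adjusted p under 0.05. The 2 filled points are Hdac1, at 1.45, and Rbbp7, at -0.59, both in P10 GO; Mbd3 lies at -1.47 in P10 NGO and at 0.97 in P10 GO.

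The knockout effect was then compared between stages by an interaction term. Between P10 GO and P10 NGO, 1 member passed, where 7.46% of all genes passed. This was Mbd3, with 74 and 79 recovered reads in P10 GO GcKO, against 63 and 17 in P10 GO Gctrl. In P10 NGO it had 82 and 46 reads in GcKO, against 222 and 130 in Gctrl. The effect on Mbd3 was 2.44 ± 0.577 higher in GO than in NGO (limma adjusted p = 0.0254), with all 4 knockout and control groups as given above. This call was lost without P10 GO GcKO replicate 2 (2.31, adjusted p = 0.0575), without P10 GO Gctrl replicate 2 (1.81, adjusted p = 0.0696), without P10 NGO GcKO replicate 2 (2.20, adjusted p = 0.0667) and without P10 NGO Gctrl replicate 1 (2.15, adjusted p = 0.0651), and with quantile normalization (1.66, 0.0689), voom (3.16, 0.0776) or a fit of these groups alone (0.205). For Rbbp7 the effect in GO was 0.83 lower than in NGO (-0.83 ± 0.249, adjusted p = 0.0683), which became a call without P10 NGO Gctrl replicate 1 (adjusted p = 0.0216). For Hdac1 the effects differed by 0.08 ± 0.620, with a 95% interval of -1.27 to 1.43, and the sign of this difference changed in 5 of 15 alternatives. Between P5 and P1 no member passed in limma, where 0.313% of all genes passed. At an unadjusted p under 0.05 there were 0 of 10 members and 7.35% of all genes.

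The other ATPases that can occupy the place of CHD4 were low in oocytes. Chd3 was between 0.0153 and 2.89 TPM and Chd5 at no more than 0.388 TPM in oocyte libraries. In spermatogonia Chd3 was at 48.6 and 42.2 TPM in P3 DcKO, against 14.5 and 24.3 TPM in P3 Dctrl, a difference of 1.22 ± 0.324 (limma adjusted p = 0.187). Chd5 was at 9.44 and 15.9 TPM in P3 DcKO, against 5.09 and 3.63 TPM in P3 Dctrl, a difference of 1.32 ± 0.499 (limma adjusted p = 0.284). For both, the knockout libraries were above the controls, in a comparison in which no gene passed.

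Complexes that share these subunits were followed through lists of their other members. In P10 GO GcKO against P10 GO Gctrl, 1 of 12 tested genes of the SIN3 complex, a second HDAC1 and HDAC2 corepressor, was higher and 2 lower, beside the 13.8% of all genes that changed. Its scaffold Sin3b was at 35.9 and 38.9 TPM in P10 GO GcKO, against 12.2 and 21.1 TPM in P10 GO Gctrl, a difference of 1.17 ± 0.268 (limma adjusted p = 0.0118). Sap30, a bridging subunit, was at 24.3 and 23.6 TPM in P10 GO GcKO, against 155 and 167 TPM in P10 GO Gctrl, a difference of -2.70 ± 0.648 (adjusted p = 0.0152). Arid4a was at 14.1 and 8.07 TPM in P10 GO GcKO, against 26.7 and 26.0 TPM in P10 GO Gctrl (adjusted p = 0.0329). Each of these 3 calls was lost when some single libraries of the comparison were left out, with adjusted p then reaching 0.106 for Sin3b, 0.0826 for Sap30 and 0.181 for Arid4a. Without P10 GO Gctrl replicate 1, the difference was 0.80 for Sin3b, -2.75 for Sap30 and -1.20 for Arid4a. A limma fit of these groups alone lost Sin3b (adjusted p = 0.123) and Arid4a (0.138) and kept Sap30 (0.0104). Voom on recovered reads lost Arid4a (adjusted p = 0.0597).

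Among 13 genes of other complexes that hold RBBP4 or RBBP7, none was higher and 1 was lower in P10 GO GcKO, beside 9.12% and 4.69% of all genes. This was Ezh2, the methyltransferase of Polycomb repressive complexes, at 172 and 93.5 TPM in P10 GO GcKO, against 520 and 528 TPM in P10 GO Gctrl, a difference of -2.04 ± 0.342 (limma adjusted p = 0.00183) that held in all 11 alternatives. Like Rbbp7, Ezh2 was higher in P10 GO Gctrl than in P10 NGO Gctrl, where it was at 175 and 191 TPM, with a difference of 1.52 ± 0.342 (limma adjusted p = 0.00621). None of 9 tested CoREST and MiDAC genes, which use HDAC1 or HDAC2, was called in P10 GO by limma. None of 10 tested NuRD-associated genes outside the core was called either, beside 13.8% of all genes. At an unadjusted p under 0.05 there were 0 genes in both lists, beside 25.5% of all genes. In the P1, P5 and P10 NGO knockout comparisons, no gene of these 4 lists was called in limma. At an unadjusted p under 0.05 there were at most 1 gene per list at P1, 2 at P5 and 5 at P10 NGO, the last among the 10 NuRD-associated genes tested, where 10.2%, 11.8% and 15.6% of all genes had such a p. Sall4, of the NuRD-associated list, was at 214 and 197 TPM in P10 GO GcKO, against 372 and 345 TPM in P10 GO Gctrl, and at 36.8 and 41.5 TPM in P10 NGO GcKO, against 25.6 and 9.71 TPM in P10 NGO Gctrl. Its knockout effect in GO minus that in NGO was -2.05 ± 0.540 (log2, SE, limma adjusted p = 0.0408), from -2.7 to -1.39 over 15 alternatives with adjusted p from 0.00513 to 0.123. The call was lost in 8 of them: with no filter, in a fit of these groups alone, and without any 1 of 6 libraries, the 4 P10 GO libraries, P10 NGO Gctrl replicate 2 and P10 NGO GcKO replicate 2.

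The genes whose log2(TPM + 1) followed each member most closely over the 16 oocyte libraries were sought among 10026 genes with a group mean of at least 5 TPM. Rbbp7 was followed by Chek1, a DNA damage checkpoint kinase, with Pearson r = 0.977, and by Sall4, a zinc finger protein of germ cells that binds NuRD, with r = 0.972. Sall4 ranged from 7.82 to 372 TPM. Hdac2 was followed by Golt1b (r = 0.93) and Nvl (r = 0.916), Hdac1 by Sharpin (r = 0.982) and Asna1 (r = 0.966), and Mbd3 by Rpl27 (r = 0.978) and Sp3os (r = 0.974). Mta3 was followed by the remodeller gene Chd2 (r = 0.982), which stayed at or below 5.98 TPM, and by Ap1b1 (r = 0.977). The closest to Mta1 were Vcp (r = 0.973) and Anapc5 (r = 0.969), and to Mta2 Dnajb3 (r = 0.915) and Gk5 (r = 0.889). The linker Gatad2a was followed by Mcrip1 (r = 0.974) and Cct7 (r = 0.972), Gatad2b by Gpat2 (r = 0.967) and Tnpo3 (r = 0.949), and Rbbp4 by Myo9a (r = 0.968) and Psmd2 (r = 0.962). Among the members, Mta1 and Gatad2a had r = 0.94 and Mta1 and Mbd3 r = 0.93, whereas Rbbp4 and Rbbp7 had r = -0.92 and Hdac1 and Hdac2 r = -0.47. The libraries fall into stages, and TPM ties genes of a library to each other, so these values describe the shared stage pattern.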

How the data were processed

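RNA from 16 oocyte and 4 spermatogonia libraries had been sequenced as 10 groups of 2. The authors deposited TPM per gene, in a table for each cell type. Per the submitters' processing notes, Trimmomatic 0.39, STAR 2.5.4b, SAMtools 1.9 and featureCounts 2.0.1 were used with GRCm38. The annotation, gene lengths, strandedness, multiple matches and TPM step are not given in the sources used here, so overlapping genes may share reads.

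Depth was recovered from deposited TPM and GENCODE M21 union exon lengths as the scale at which values under 20 reads became whole (98.68% to 99.22% within 0.05). Testing used limma 3.58.1 in R 4.3.3 on log2(TPM + 1), for genes that reached 1 TPM in 2 or more libraries. Moderated tests (lmFit, contrasts.fit, eBayes, trend set) were two-sided, and p-values were adjusted by Benjamini and Hochberg's method across every gene of the fit, with a threshold of 0.05. The 16 oocyte libraries (20470 genes) shared 1 fit, with 8 residual degrees of freedom, and the spermatogonia (18671 genes) were fitted alone, with 2. Intervals are 95% from the same fits. The method was tested on simulated data, with planted changes larger than those of Hdac1 and Rbbp7 in the P10 GO knockout. That test does not show how often changes of their size are found. Alternatives were another pseudocount (0.1), filters (TPM 5, none), quantile normalization, voom on recovered reads, a replicate block, fits of only the groups compared, and each library left out. Figures were drawn with matplotlib 3.10.9 in Python 3.11.15.

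The members, related lists and markers were chosen with earlier results of these data known. Named genes were the 10 members, Chd4, Chd3 and Chd5, listed genes called in a knockout comparison (at most 4 per list) and the 2 genes most alike to a member over oocyte libraries. Mbd2, Hdac1-ps, Gm6382 and Sall4 as a difference of effects were added after values were seen.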

Additional observations from a re-analysis of the deposited data

Results flagged for a closer look

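The Chd4 knockout effect on Mbd3 differed between the P10 oocyte classes by an interaction test: it was 2.44 ± 0.577 higher on the log2 scale in growing than in non-growing oocytes (limma adjusted p = 0.0254), with 2 libraries in each of the 4 groups. Mbd3 was at 4.96 and 6.13 TPM in P10 GO GcKO, against 4.17 and 1.15 TPM in P10 GO Gctrl, and at 4.38 and 2.87 TPM in P10 NGO GcKO, against 14.5 and 9.35 TPM in P10 NGO Gctrl. Neither effect alone passed the threshold. The 4 knockout libraries lie within 2.87 to 6.13 TPM and the controls within 1.15 to 14.5 TPM. Counts were low, down to 17 recovered reads in P10 GO Gctrl replicate 2 and 46 in P10 NGO GcKO replicate 2. Of 15 alternatives, 8 kept the call, over a range of 1.66 to 3.16 and adjusted p from 0.00803 to 0.205.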

How the results depend on the processing

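Of 57 gene results recomputed, 51 kept their direction in every alternative, among them every called one. The 6 that reversed were not called. Quantile normalization gave -0.12 for Gatad2a and -0.27 for Rbbp4 in P10 GO GcKO against Gctrl and -0.17 for Hdac1 in the GO minus NGO difference, and voom gave -0.0 for Rbbp7 in P10 NGO Gctrl against P5 NGO Dctrl. Leaving out single libraries gave -0.08 to 0.11 for Rbbp4, -0.14 to 0.1 for Hdac1 in P3, -0.83 to 0.54 for Mta3 in P10 GO against NGO Gctrl, -0.01 to 0.49 for that Rbbp7 value and -0.43 to 0.58 for that Hdac1 difference. Quantile normalization moved the members called to 0 in P10 GO GcKO against Gctrl (2 as reported), 1 in P5 against P1 NGO Dctrl (0 as reported), 5 in P10 NGO Gctrl against P5 NGO Dctrl (8 as reported) and 0 in the P10 GO minus P10 NGO difference of effects (1 as reported). Fits of only the groups compared gave 0, 2, 5 and 0. Voom on recovered reads gave 1 in P10 GO and 0 for the difference, and no filter gave 0 in P10 GO. Leaving out single libraries gave 0 to 2, 4 to 6 and 0 to 1 members in P10 GO, P10 NGO against P5 and the difference. The causes were not tested.

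Same-numbered knockout and control libraries deviated with r from -0.049 to 0.021, so the numbers are not known to pair samples. With a replicate block, 2 members were called in P10 GO, 6 in P10 NGO against P5 and 2 in the difference of effects, where Rbbp7 joined Mbd3.

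Over all genes, counts called ranged over alternatives from 71 to 467 in P1 (348 as reported), 0 to 449 in P5 (278), 0 to 1260 in P10 NGO (393), 1527 to 3346 in P10 GO (2827), 0 to 56 in spermatogonia (0), 249 to 2358 in P5 against P1 (962), 3635 to 5604 in P10 GO against NGO controls (4968), 2569 to 5813 in P10 NGO against P5 controls (4639), 10 to 318 in the P5 minus P1 difference of effects (64) and 385 to 2168 in the GO minus NGO difference (1527). With 2 libraries a group, the intervals of most members are wide.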
